A study of Mus musculus with 24 samples.

Results

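The 10 genes described here are T cell and cytotoxic lymphocyte genes: Cd3d, Cd3e, Cd3g, Cd4, Cd8a, Cd8b1, Gzma, Gzmb, Nkg7 and Pdcd1. They were taken by symbol, as a list drawn up with earlier results of these data known, from 56205 gene rows of a mouse liver RNA-Seq table, and all 10 were found and tested among 17913 genes with enough counts. The table holds 24 libraries of poly(A) RNA from whole liver of C57BL/6J mice, 12 from mice kept for 20 weeks on a high-fat diet rich in palm oil, fructose and cholesterol, and 12 from the matching control diet group. No transgene, deletion or drug was used, so diet is the only stated difference, and the comparison asks which liver transcripts change in a dietary model of steatohepatitis. The design includes males and females on either diet, but the labels give no sex for any library.

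T cells recognize antigen through a receptor whose signal is passed into the cell by the CD3 chains, encoded by Cd3d, Cd3e and Cd3g. The coreceptor CD4 marks helper T cells and, in mice, also part of the dendritic cells. The CD8 coreceptor, an alpha and beta chain pair encoded by Cd8a and Cd8b1, marks cytotoxic T cells. Cd8a is also used by part of the dendritic cells. Granzymes A and B (Gzma, Gzmb) are proteases that cytotoxic T cells and natural killer (NK) cells release into target cells, NKG7 is a granule protein of the same cells, and PD-1 (Pdcd1) is an inhibitory receptor that rises on activated T cells and stays on chronically stimulated ones. In fatty liver disease CD8 T cells are known to accumulate in the liver alongside macrophages.

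Libraries held 14468418 to 22112552 counts on genes. Replicates 1 to 6 of both diets had Xist at 2664 to 6285 counts, and replicates 7 to 12 had it at 0 to 3. Xist is transcribed from the inactive X chromosome. These are called Xist-high and Xist-low libraries here, with 6 libraries per diet in each. They are sets seen in the data and not groups of the labels. The design gives 6 mice per diet and sex, the same number as in each set, but the sex of a library is not labelled. The sets differed in composition as well as in Xist. TMM scaling factors, which correct library totals for composition, ran from 1.12 to 1.34 in Xist-low libraries of the high-fat diet and from 0.679 to 0.956 in Xist-low control libraries. With library totals alone, the median log2 fold change of all tested genes was 0.26, against -0.03 with TMM, and 94.4% rather than 72.6% of the calls were higher on the high-fat diet. Control replicate 6 stood apart in Cd8a. Values without single libraries are given where they matter.

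The members lie on 6 mouse chromosomes (GRCm38, GENCODE M21 gene models). Cd3g (chr9:44969572-44980431, minus strand) and Cd3d (chr9:44981786-44987339, plus strand) are transcribed away from each other from start sites 1355 bp apart, and Cd3e (chr9:44998740-45009627, minus strand) follows next to them. Up to 163 exonic bases of Cd3e are shared with Gm48719, which had at most 1 count in any library. Cd8b1 (chr6:71322788-71337494) ends 35933 bp before Cd8a (chr6:71373427-71379173), both on the plus strand, and Cd4 lies on the same chromosome (chr6:124864692-124888221, minus strand). The others are Gzma (chr13:113093825-113100981, minus), Gzmb (chr14:56258838-56262260, minus), Nkg7 (chr7:43437073-43438249, plus) and Pdcd1 (chr1:94038305-94052553, minus). No exon of these other 9 genes is overlapped by an exon of another annotated gene.

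Upstream sequence was available for 8 of the 10 genes (RefSeq, GRCm38.p6), all except Cd4 and Cd8b1. The 250 bases before the start site are printed for the divergent pair Cd3g and Cd3d, and for Cd8a and Pdcd1, which carry the results on the CD8 share and on PD-1. Capitals mark matches, on either strand, to 4 core motifs of factor families at work in lymphocytes. AGATAA is the core for Gata factors. CTTTGA is that for the TCF and LEF factors, AGGAAG that for Ets factors and TGTGGT that for Runx factors.
Cd3g (chr9:44980432-44980681, minus strand): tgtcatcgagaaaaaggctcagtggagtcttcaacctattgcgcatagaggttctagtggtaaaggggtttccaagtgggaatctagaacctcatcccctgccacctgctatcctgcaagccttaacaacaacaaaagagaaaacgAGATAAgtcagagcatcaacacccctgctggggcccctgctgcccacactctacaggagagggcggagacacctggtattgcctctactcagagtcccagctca
Cd3d (chr9:44981536-44981785, plus strand): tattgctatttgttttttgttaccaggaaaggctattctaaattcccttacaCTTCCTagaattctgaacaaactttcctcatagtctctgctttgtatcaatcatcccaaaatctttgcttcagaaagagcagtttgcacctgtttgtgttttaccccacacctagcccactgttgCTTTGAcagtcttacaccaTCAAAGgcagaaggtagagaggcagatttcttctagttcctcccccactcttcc
Cd8a (chr6:71373177-71373426, plus strand): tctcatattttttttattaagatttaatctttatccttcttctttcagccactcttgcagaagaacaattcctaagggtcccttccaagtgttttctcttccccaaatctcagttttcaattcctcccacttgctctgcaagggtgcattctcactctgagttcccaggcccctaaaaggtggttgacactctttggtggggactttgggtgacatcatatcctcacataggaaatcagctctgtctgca
Pdcd1 (chr1:94052554-94052803, minus strand): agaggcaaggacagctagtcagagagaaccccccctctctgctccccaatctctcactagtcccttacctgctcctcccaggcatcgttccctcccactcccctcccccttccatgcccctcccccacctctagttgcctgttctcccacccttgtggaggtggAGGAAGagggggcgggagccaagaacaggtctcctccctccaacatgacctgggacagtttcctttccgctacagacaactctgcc
The Cd3g window held 1 AGATAA, 104 to 99 bases before the start site. The Cd3d window held CTTTGA once on each strand and 1 AGGAAG on the minus strand. The Pdcd1 window held 1 AGGAAG, and the Cd8a window held none of the 4 motifs. Over the 8 genes, AGGAAG was found in 4 (Cd3d, Cd3e, Nkg7 and Pdcd1), TGTGGT in 3 (Gzma, Gzmb and Nkg7) and AGATAA and CTTTGA in 1 each. In all 32851 windows of this length the shares were 29.5% for AGGAAG, 14.1% for TGTGGT, 9.99% for AGATAA and 13.8% for CTTTGA. These matches describe the letters only.

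Over all 24 libraries the 10 genes were low and mostly overlapped between the diets. Pdcd1 alone passed the test, higher on the high-fat diet, and none was lower. Of all genes tested, 13.2% were called higher and 4.99% lower at the same threshold, an adjusted p of 0.01 or less together with a log2 fold change beyond 0.5 in either direction (edgeR's quasi-likelihood test). The median log2 fold change of the 10 genes was 0.66, against -0.03 for all tested genes, and 8 of the 10 lay above 0. For no member did the 12 high-fat diet libraries all lie on one side of the 12 controls, whereas 1.48% of tested genes lay wholly higher and 0.402% wholly lower. In bulk tissue a change in the number of lymphocytes and a change in RNA per lymphocyte cannot be told apart.

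Pdcd1, the PD-1 receptor gene, had few counts in control livers. It had 0 counts in 9 of the 12 control libraries and 9 counts in all, of which 6 came from replicate 6. On the high-fat diet it had 0 to 16 counts per library, with a median of 4 and 71 in all. Only 2 high-fat diet libraries had none, and 4 exceeded the highest control. The ratio of the summed, depth-scaled counts was 6.85 (95% exact interval 3.41 to 15.6, counting error only). The log2 fold change was 2.60 (standard error, SE, 0.73, edgeR adjusted p = 0.00642). This call was close to the threshold. It was lost when any 1 of 12 libraries was left out (high-fat diet replicates 8, 9, 11 and 12 and control replicates 1, 2, 3, 4, 7, 9, 11 and 12), and the adjusted p then rose to at most 0.0135. Leaving out control replicate 6 raised the log2 fold change to 3.69. With a term for the Xist sets or with 1 surrogate variable no member was called.

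**Figure D1:**
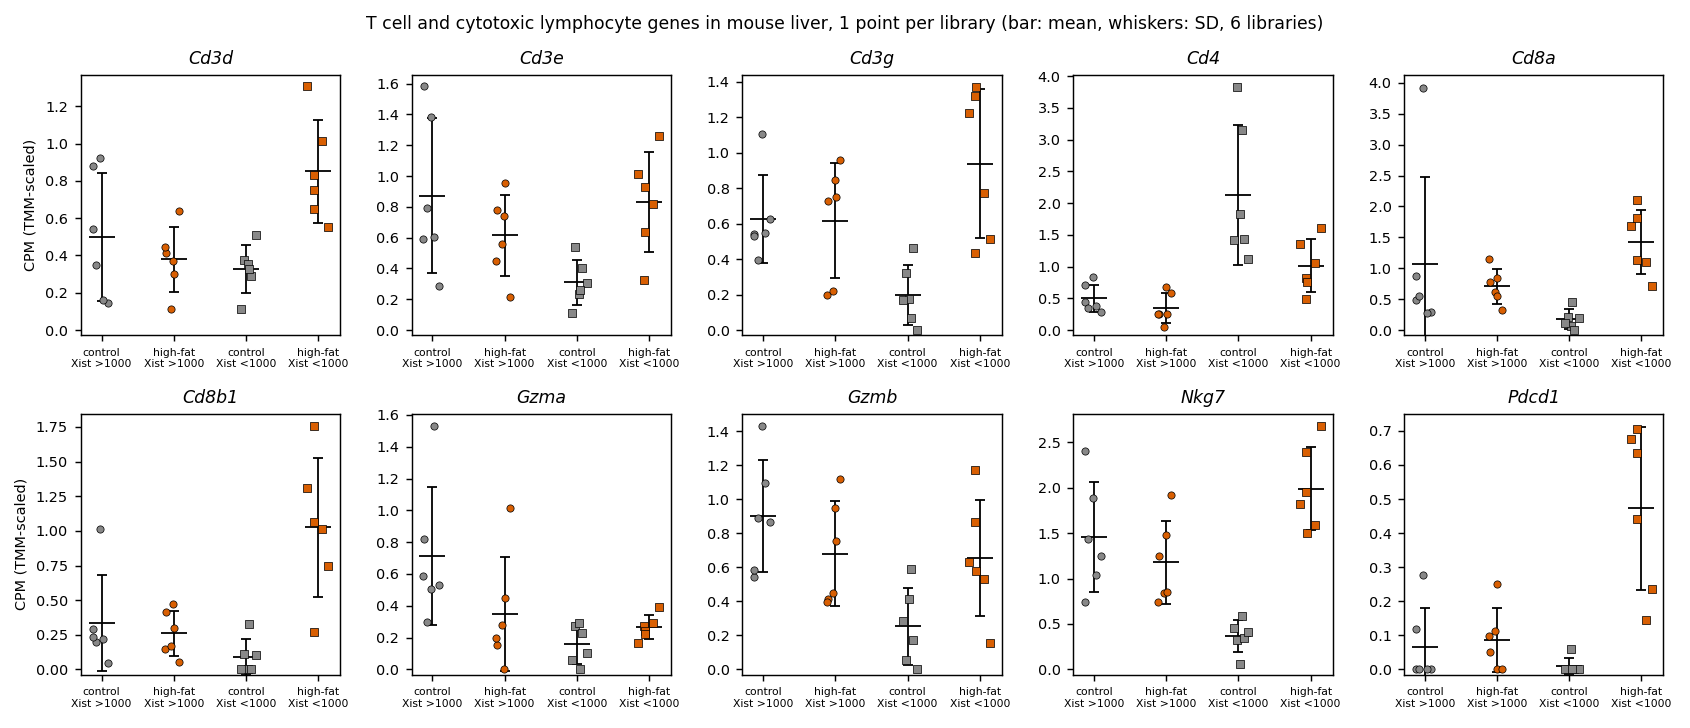
Level of each of the 10 genes (y axis, CPM, counts scaled to the TMM-adjusted library total; 1 point per library) in the 4 groups formed by diet and Xist set (x axis, 6 libraries each). Horizontal bars are means and whiskers are SD. In the Xist-low libraries, Cd3d, Cd8a, Nkg7 and Pdcd1 of the high-fat diet lie wholly above the controls, and Cd4 is highest in the Xist-low controls.

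In the 12 Xist-low libraries 6 of the 10 genes were higher on the high-fat diet and none was lower, against 14.4% of all tested genes called higher and 7.99% lower. In the 12 Xist-high libraries none was called in either direction. There 2.9% of all genes were higher and 0.882% lower, and 0 of the 10 had an unadjusted edgeR p under 0.05. DESeq2 called none there either. The members' median log2 fold change was 1.78 in the Xist-low set and -0.39 in the Xist-high set (all genes, -0.03 and 0.01). In the Xist-low set 4 members did not overlap between the diets, all with the controls below, against 12.6% of all tested genes wholly higher and 9.66% wholly lower. No member was free of overlap in the Xist-high set, against 3.51% and 2.39%.

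Of the CD3 chain genes, Cd3d and Cd3g were called in the Xist-low set, Cd3e was not, and none passed the test of the difference between the sets given further on. Cd3d in Xist-low controls ran from 0.113 to 0.509 CPM (median 0.341) and in Xist-low high-fat diet libraries from 0.552 to 1.31 CPM (median 0.791), without overlap. In the Xist-high set it ran from 0.144 to 0.923 CPM (median 0.444) in controls and from 0.112 to 0.639 (median 0.392) on the high-fat diet, with wide overlap. The log2 fold change was 1.41 (SE 0.36, edgeR adjusted p = 0.00646) in the first set and -0.38 (SE 0.50) in the second.

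Cd3g in Xist-low libraries ran from 0 to 0.46 CPM (median 0.173) in controls and from 0.434 to 1.37 (median 0.999) on the high-fat diet. Only the highest control, replicate 9, reached the lowest high-fat diet library. The log2 fold change was 2.13 (SE 0.52, edgeR adjusted p = 0.00487), and -0.01 (SE 0.41) in the Xist-high set. Cd3e had a log2 fold change of 1.42 (SE 0.41) in the Xist-low set, with an adjusted p of 0.0126 that missed the threshold, and -0.49 (SE 0.42) in the Xist-high set. The calls of Cd3d and Cd3g rested on few counts, 2 to 7 and 0 to 8 per Xist-low control library. Leaving out 1 library ended the call of Cd3d for 9 of 12 libraries (all but high-fat diet replicates 8 and 10 and control replicate 10; adjusted p at most 0.0156) and that of Cd3g for 6 of 12 (high-fat diet replicates 9, 11 and 12 and control replicates 8, 11 and 12; at most 0.013). With the replicate block Cd3d was not called (adjusted p = 0.0311). Cd3e was called without high-fat diet replicate 8 or control replicate 7 (lowest adjusted p 0.00505).

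**Figure D2:**
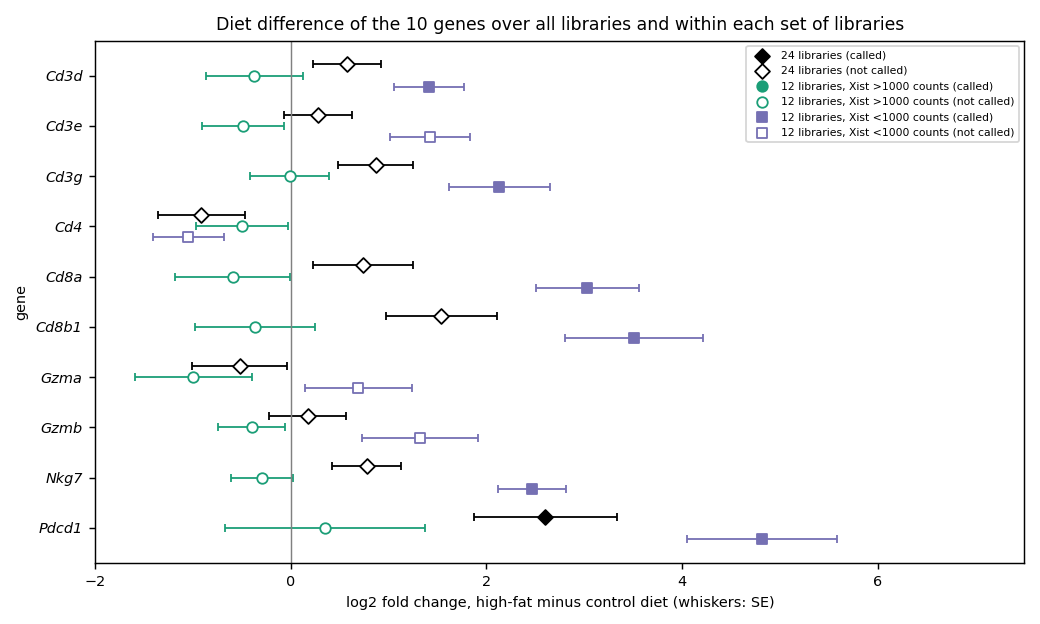
Log2 fold change (x axis, high-fat minus control diet; whiskers, standard error) of each gene (y axis) over all 24 libraries, the 12 Xist-high and the 12 Xist-low libraries. Filled symbols passed the threshold: Pdcd1 over all libraries and 6 genes in the Xist-low set.

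Both CD8 coreceptor genes were called higher in the Xist-low set and not in the Xist-high set. Cd8a in Xist-low controls ran from 0 to 0.46 CPM (median 0.158), which is 16 counts over 6 libraries. On the high-fat diet it ran from 0.71 to 2.1 CPM (median 1.41), 186 counts over 6 libraries. Every high-fat diet library was above every control, and the log2 fold change was 3.03 (SE 0.52, edgeR adjusted p = 0.000449). In the Xist-high set Cd8a ran from 0.273 to 3.92 CPM (median 0.518) in controls and from 0.32 to 1.15 (median 0.696) on the high-fat diet, with a log2 fold change of -0.59 (SE 0.59). The control maximum was replicate 6, with 85 counts where the other 5 had 5 to 15. When it was left out, the Xist-high value was 0.53, still not called. Over all libraries Cd8a then reached 1.70 and was called (adjusted p = 0.00161).

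Cd8b1, the beta chain, followed Cd8a. Xist-low controls ran from 0 to 0.329 CPM (median 0.0509), with 8 counts in all and 3 libraries at 0, and Xist-low high-fat diet libraries from 0.271 to 1.75 (median 1.04), with 136 counts. Control replicate 12 was the single control that reached the lowest high-fat diet library. The ratio of summed counts was 12.4 (95% exact interval 6.1 to 29.2, counting error only) and the log2 fold change 3.51 (SE 0.71, edgeR adjusted p = 0.00137). In the Xist-high set the log2 fold change was -0.37 (SE 0.61), and 0.40 without control replicate 6. Without that library Cd8b1 was also called over all libraries, at a log2 fold change of 2.16 (adjusted p = 0.00322, against 0.0334 with it). In the Xist-low set Cd8a and Cd8b1 passed the test in all 17 settings, including every library left out in turn.

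Cd4 differed from the CD8 genes in the Xist-low set, where its log2 fold change was negative. Its level was highest in Xist-low controls, from 1.12 to 3.84 CPM (median 1.63), and lower in Xist-low high-fat diet libraries, from 0.488 to 1.62 (median 0.945). In the Xist-high set it ran from 0.288 to 0.83 CPM (median 0.412) in controls and from 0.0558 to 0.686 (median 0.255) on the high-fat diet. Groups overlapped in both sets. The log2 fold change was -1.05 (SE 0.36, adjusted p = 0.033) in the Xist-low set and -0.92 (SE 0.44, adjusted p = 0.103) over all libraries. In the Xist-high set it was -0.50 (SE 0.47), negative as for Cd8a and Cd8b1 there. None of these was called. Between the sets, Cd4 was called higher in Xist-low than in Xist-high controls, with a log2 difference of 2.09 (SE 0.41, edgeR adjusted p = 0.000822), while Cd8a and Nkg7 were called lower there, by -2.62 and -2.001 (adjusted p = 0.00929 and 0.000367). In that comparison of controls 2.24% of genes were higher and 3.5% lower. Between the sets on the high-fat diet, where 2.97% were higher and 3.42% lower, no member was called, and Cd4 had a log2 difference of 1.54 (SE 0.43, edgeR adjusted p = 0.0147). In all 6 Xist-low controls the Cd4 count, 11 to 71 per library, exceeded the summed Cd3d, Cd3e and Cd3g count, 7 to 23, which happened in none of the other 18 libraries. These are counts and are not adjusted for transcript length. The marker lists covered plasmacytoid and type 1 conventional dendritic cells but no other dendritic cells. The part of dendritic cells in the Cd4 counts was not tested.

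Among the effector genes, Nkg7 had the most counts and the clearest contrast. In Xist-low controls it ran from 0.0589 to 0.592 CPM (median 0.376) and on the high-fat diet from 1.5 to 2.68 (median 1.88). The groups did not overlap, and the log2 fold change was 2.46 (SE 0.35, edgeR adjusted p = 9.79e-05). Xist-high controls ran from 0.737 to 2.41 CPM (median 1.34) and high-fat diet libraries from 0.747 to 1.92 (median 1.05), a log2 fold change of -0.30 (SE 0.32). The Xist-low controls were thus the low group, below all 18 other libraries.

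The granzyme genes did not pass the test in any set. Gzmb in Xist-low libraries ran from 0 to 0.592 CPM (median 0.228) in controls and from 0.158 to 1.17 (median 0.605) on the high-fat diet, with a log2 fold change of 1.32 (SE 0.59, adjusted p = 0.0935). In Xist-high libraries it ran from 0.541 to 1.43 CPM (median 0.878) and from 0.398 to 1.12 (median 0.599), with a log2 fold change of -0.40 (SE 0.34). Gzma had log2 fold changes of 0.69 (SE 0.55) in the Xist-low and -0.996 (SE 0.60) in the Xist-high set, with 0 to 28 counts per library. Groups overlapped for both granzymes in both sets.

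Pdcd1 in the Xist-low set had 1 count over 6 control libraries, in replicate 8, and 61 counts over 6 high-fat diet libraries, 3 to 16 in each. The groups did not overlap. The ratio of the summed counts was 44.4, with a 95% exact interval from 7.67 to 1782 that covers counting error only. The fitted log2 fold change of 4.82 (SE 0.77, edgeR adjusted p = 0.00023) depends on how the fit treats the near-empty controls. In the Xist-high set Pdcd1 had 8 counts in controls and 10 on the high-fat diet, a ratio of 1.29 (interval 0.457 to 3.75), and a log2 fold change of 0.35 (SE 1.02) that was 1.76 without control replicate 6.

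The difference between the sets was tested with an interaction term over all 24 libraries. Nkg7 and Cd8a passed, against 2.57% of tested genes with a more positive and 1.47% with a more negative diet effect in the Xist-low set. The diet effect of Nkg7 was 2.75 higher on the log2 scale in the Xist-low set (SE 0.48, edgeR adjusted p = 0.00066), and it passed in all 29 settings. That of Cd8a was 3.62 higher (SE 0.86, adjusted p = 0.00795), but it failed when any of 14 single libraries was left out (high-fat diet replicates 1, 2, 3, 5, 6, 9, 11 and 12 and control replicates 5, 6, 7, 8, 9 and 11), with adjusted p-values of at most 0.0218. Without control replicate 6 the difference was 2.50. Cd8b1 missed narrowly (3.87, SE 0.98, adjusted p = 0.0117) and passed without high-fat diet replicate 8 or control replicate 3 or 12 (lowest adjusted p 0.00395). The other 7 members were not shown to differ between the sets, although all of them except Cd4 had a more positive value in the Xist-low set.

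Markers of other cells moved in the same libraries. All 5 general leukocyte genes (Ptprc, Cd52, Cd53, Coro1a and Laptm5) rose on the high-fat diet and all 5 passed the interaction test. Their summed level was 28.4 to 52.9 CPM in Xist-low controls, 50.6 to 101 in Xist-high controls, 109 to 148 in Xist-high and 155 to 226 in Xist-low high-fat diet libraries. All 6 markers of monocyte-derived macrophages rose over all libraries, and their summed level went from 17.9 to 41.2 CPM in Xist-low controls to 157 to 221 in Xist-low high-fat diet libraries. Of 6 hepatocyte genes, 4 fell (Alb, Ttr, Apoa1 and Cps1) and none rose, with summed levels of 81380 to 97250 CPM in Xist-low controls and 36030 to 47070 in Xist-low high-fat diet libraries. No leukocyte, macrophage or hepatocyte marker on these lists was at 0 in a whole group. The part of these shifts in the members' differences was not tested.

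**Figure D3:**
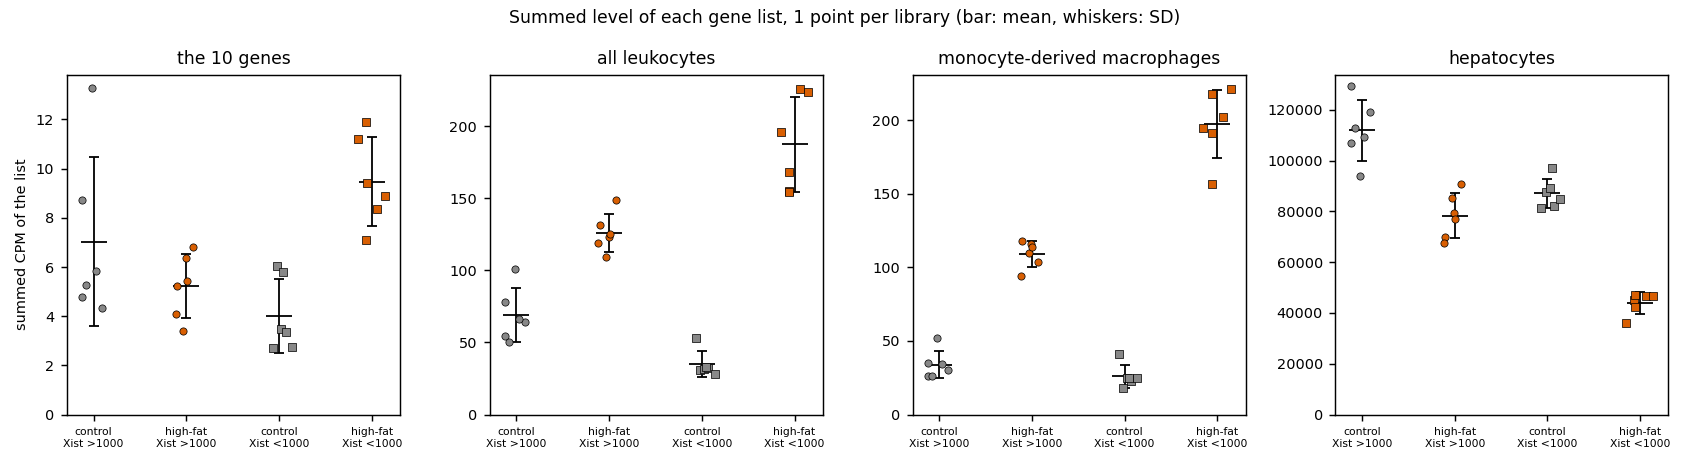
Summed level of the 10 genes, of general leukocyte, monocyte-derived macrophage and hepatocyte markers (y axes from 0, summed CPM; 1 point per library) in the 4 groups formed by diet and Xist set (x axis). Bars are means and whiskers are SD. Leukocyte and macrophage sums of the high-fat diet lie above the controls in both sets, and the sums of the 10 genes do so in the Xist-low set alone.

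Lists of other lymphocytes and dendritic cells are given over all libraries and then within the Xist-low set. Within the Xist-high set edgeR called none of their genes, and 2 of type 1 conventional and 1 of plasmacytoid dendritic cells had an unadjusted p under 0.05. Of 5 B cell genes none was called over all libraries, and Cd79a, a chain of the B cell receptor, was higher in the Xist-low set (log2 fold change 1.30, SE 0.33, edgeR adjusted p = 0.0059). The summed B cell level was 2.53 to 6.23 CPM in Xist-low controls and 5.75 to 12.7 in Xist-low high-fat diet libraries. Of 7 tested NK cell and ILC1 genes, Klrb1b and Xcl1 rose over all libraries, with log2 fold changes of 2.34 and 2.01, and 3 rose in the Xist-low set, with Ncr1 as the third. Over all libraries 5 of the 7 lay above 0, and Klrb1c (-0.36) and Klrc2 (-0.19) lay below. In the Xist-high set 3 of the 7 lay above 0, with a median of -0.23. Of the 9 listed genes, Klra4 and Klra9 were at 0 in all Xist-low controls. Batf3 and Flt3 rose among 5 genes of type 1 conventional dendritic cells, and 4 of the 5 rose in the Xist-low set. No gamma-delta T cell or NKT cell gene among 3 tested, and none of 5 plasmacytoid dendritic cell genes, was called over all libraries or in either set. The part of these cells in the members' differences was not tested.

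Among myeloid lists, all 4 tested neutrophil genes were called higher over all libraries, none within the Xist-high set and 2 within the Xist-low set. Their list summed to 178 CPM in high-fat diet replicate 3, and to 1.19 to 3.52 in the other 11 high-fat diet libraries and 0.288 to 2.03 in controls. Without that library S100a8 and S100a9 were still called, with log2 fold changes of 1.55 and 1.004 (from 4.28 and 3.79 with it), and Retnlg and Camp were not (edgeR adjusted p = 0.155 and 0.245). Of 5 Kupffer cell genes only Cd5l was called, higher over all libraries and in both sets. Over all libraries 4 of the 5 lay above 0. Timd4 lay below (-0.74, and -1.01 in the Xist-high set, edgeR adjusted p = 0.0163) and was not called. Only Kit of the 5 mast cell genes had enough counts, and it was not called.

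Other genes of the pathway were taken as fixed lists. Of 55 tested genes of the T cell receptor pathway, cytotoxic effectors, checkpoint receptors, PD-1 ligands and helper or regulatory T cells, 11 were higher and 0 lower over all libraries (all tested genes, 13.2% and 4.99%), with a median log2 fold change of 0.77. In the Xist-low set 22 were higher and 0 lower (all tested genes, 14.4% and 7.99%), and in the Xist-high set 1 was higher, Themis, and 0 lower (2.9% and 0.882%). The counts of the separate lists are to be read against the same shares, and no list was tested against other genes.

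Of 21 T cell receptor and signalling genes, 3 rose over all libraries. Lcp2, an adaptor that relays receptor signals in T cells and myeloid cells alike, averaged 5.04 ± 2.79 CPM in controls and rose to 12.2 ± 3.08 (SD, n = 12 each; log2 fold change 1.26, SE 0.24, edgeR adjusted p = 0.000228). Cd5, a T cell surface receptor that dampens signalling, rose by 1.81 (SE 0.44, adjusted p = 0.00188), with 0 to 4 counts in control libraries. Themis, which sets the threshold of receptor signalling in developing T cells, rose by 2.16 (SE 0.56, adjusted p = 0.00342), and was the one gene of the pathway lists called in both sets, at 3.53 in Xist-high and 1.83 in Xist-low libraries. In the Xist-low set 8 of the 21 rose, among them Trbc2, Lck and Lat, which encode the receptor beta constant region, the kinase that starts its signal and a scaffold below it. Zap70, the kinase that binds the phosphorylated receptor chains, had negative values. Its level was 22.8 ± 17 CPM in controls and 11.6 ± 4.99 on the high-fat diet (SD, n = 12 each), and its log2 fold change was -0.96 (SE 0.30, edgeR adjusted p = 0.0136) over all libraries and -1.56 (SE 0.48, adjusted p = 0.0195) in the Xist-low set. It was not called in these fits, but it was called lower with DESeq2 (adjusted p = 0.0047) and with a term for the Xist sets (adjusted p = 0.00491). The CD3 genes reached at most 1.585 CPM in any control library, far below the Zap70 mean. Which cells the Zap70 reads came from was not tested.

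Of 14 tested cytotoxic effectors and their regulators, 5 rose over all libraries and 8 in the Xist-low set. Gzmk, a granzyme of memory-like CD8 T cells, had 6 counts over the 12 control libraries and 83 on the high-fat diet (log2 fold change 3.31, SE 0.66, edgeR adjusted p = 0.000323). Eomes, a transcription factor of cytotoxic cells, had 8 and 80 counts (2.88, SE 0.66, adjusted p = 0.00114). In Xist-low controls Eomes had no counts, and the 6 high-fat diet libraries together were at least 15.8-fold higher, taken against 3 counts over the control group. Ccl5, a chemokine made by T cells and NK cells, rose by 1.44 (SE 0.32, adjusted p = 0.00084), and its diet effect was 2.46 higher in the Xist-low set (adjusted p = 0.000847). Serpinb9, an inhibitor of granzyme B, and Srgn, a granule proteoglycan of many leukocytes, rose by 0.96 and 0.63. Perforin (Prf1) did not pass in any of these comparisons (0.32 over all libraries).

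Of 13 checkpoint and activation receptors, Havcr2 (TIM-3) and Entpd1 (CD39) rose over all libraries, by 1.37 and 0.93, and both are also expressed on myeloid cells. In the Xist-low set Tigit and Cxcr6 rose as well, by 3.51 and 1.69. Lag3 had a log2 fold change of -0.17 and Tox one of -0.12, neither called. Cd274, the PD-1 ligand PD-L1, averaged 2.29 ± 1.21 CPM in controls and rose to 4.41 ± 0.895 (SD, n = 12 each; log2 fold change 0.93, SE 0.23, edgeR adjusted p = 0.00203), and Pdcd1lg2 had too few counts to be tested. Of 6 tested helper and regulatory T cell genes none was called over all libraries. Gata3 rose in the Xist-low set, by 2.85.

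**Figure D4:**
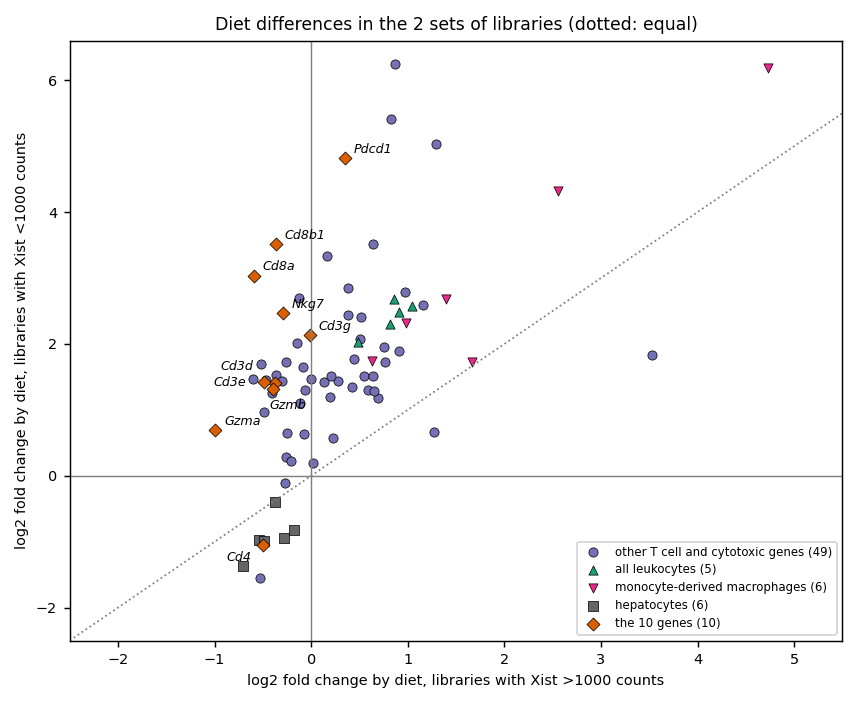
Log2 fold change by diet in the 12 Xist-high (x axis) and the 12 Xist-low libraries (y axis) for the 10 genes, 49 other T cell and cytotoxic genes and 3 marker lists (general leukocytes, monocyte-derived macrophages, hepatocytes). The dotted line marks equal values. Of the 10 genes all except Cd4 lie above the dotted line, and the points of Eomes and Tnfrsf9 rest on Xist-low controls at 0 counts.

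Shares of counts compare members within a library and do not depend on scaling. Of 6 shares, 2 differed by diet (two-sided permutation test with 100000 resamples, adjusted over 6). Among Cd8a plus Cd4 counts, Cd8a took 63.1% ± 18.2 in high-fat diet and 32.3% ± 28 in control libraries (SD, n = 12 per diet; difference 30.8 percentage points, permutation p = 0.00475, adjusted 0.0142). Among Pdcd1 plus CD3 counts, Pdcd1 took 10.7% ± 9.23 in high-fat diet and 1.54% ± 2.91 in control libraries (SD, n = 12 per diet; permutation p = 0.00092, adjusted 0.00552), and 8 of 12 high-fat diet libraries exceeded every control.

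Both shares were also compared within each Xist set. In Xist-low libraries the Cd8a share was 0% to 15.4% in controls (median 6.37%) and 30.5% to 71.7% on the high-fat diet (median 62.8%), without overlap (exact permutation test, p = 0.00216, the smallest that 6 against 6 allow; adjusted 0.013). In Xist-high libraries it was 41.7% to 82.5% in controls (median 54.1%) and 35.3% to 91.7% on the high-fat diet (median 71.9%), and did not differ beyond the spread (exact permutation p = 0.303). The Pdcd1 share in Xist-low libraries was 0% to 7.14% in controls, with 5 of 6 at 0, and 5.26% to 33.3% on the high-fat diet (exact permutation p = 0.00433, adjusted 0.013). In Xist-high libraries the means were 1.88% and 5.53% (exact permutation p = 0.21). Whether the share differences themselves differ between the sets was not tested. Cd8a and Cd4 are both also used by dendritic cells, whose part in the Cd8a share was not tested.

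**Figure D5:**
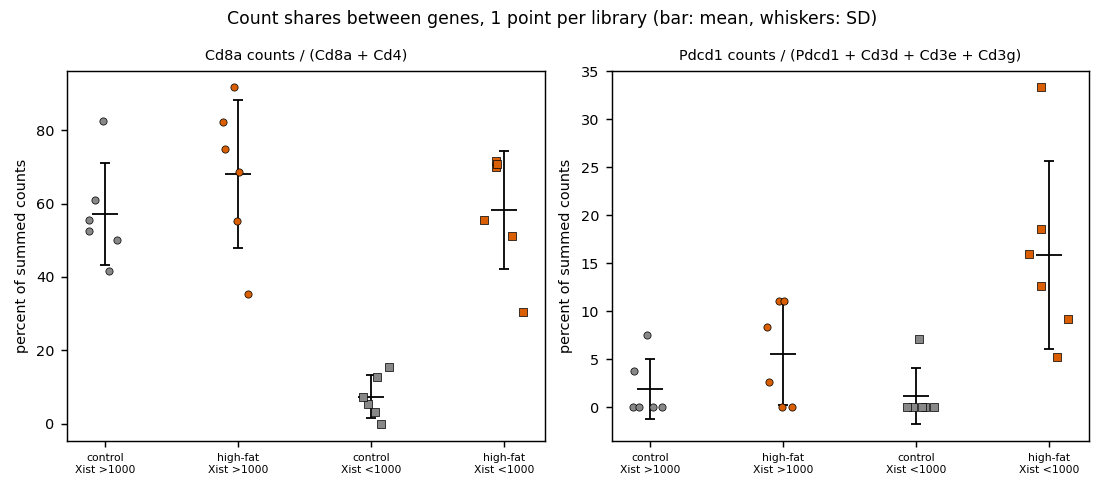
Percent of summed counts (y axis, 1 point per library) taken by Cd8a among Cd8a plus Cd4 counts, and by Pdcd1 among Pdcd1 plus CD3 counts, in the 4 groups formed by diet and Xist set (x axis). Bars are means and whiskers are SD. The Cd8a share of the 6 Xist-low controls lies at 15.4% or below, under every other library.

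The other 4 shares did not differ at an adjusted p of 0.05. Cd8b1 made up 33.2% ± 13.5 of the CD8 chain counts in high-fat diet (n = 12) and 24.8% ± 15.3 in control libraries (n = 11, since control replicate 9 had no count of either chain), and Gzmb made up 68.3% ± 17.4 and 53.6% ± 28.1 of the granzyme counts (SD, n = 12 per diet). Xist-low controls had only 0 to 12 CD8 chain counts and 1 to 12 granzyme counts per library, so single shares there are imprecise. CD3 made up 57.1% ± 8.79 and 63.1% ± 14.5 of the CD3 plus Nkg7 counts, and granzymes 32.3% ± 11.6 and 39.6% ± 15.5 of the granzyme plus CD3 counts (SD, n = 12 per diet). The adjusted permutation p was 0.23 for each of these 4.

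Members were also compared from library to library, after the mean of each diet and Xist set had been subtracted from log2(CPM + 1). Of 45 pairs, 38 had a positive Pearson's r, with a median of 0.24. After adjustment over the 45 pairs 1 pair held, Cd8a with Cd8b1, at r = 0.75 (permutation p = 0.00107, or 0.0481 adjusted) over 24 libraries. Spearman's rho was 0.73 (permutation p = 0.00034, or 0.0153 adjusted), and r fell to 0.57 when the 2 libraries with the most extreme Cd8a values were left out. Within the diets r was 0.59 (high-fat) and 0.93 (control), and among controls replicate 6 was the extreme of both genes. Among 13769 genes outside the list with a mean of 10 or more counts, the 5 most like the mean of the CD3 genes were Thy1 (r = 0.77), Nectin4 (0.73), Shisa5 (0.69), Lck (0.69) and Bag2 (0.67), given as a description over the same 24 libraries. Thy1 is a surface protein and Lck a kinase of T cells.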

How the data were processed

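Total RNA of whole liver was extracted with Trizol and sequenced as poly(A)-selected libraries. The authors deposited 1 table of raw read counts, 56205 Ensembl gene IDs by 24 libraries. Per the labels, reads were converted with bcl2fastq and aligned to mm10 with STAR 2.7.3a. The counting program, its annotation and its strand setting are not given in the sources used here. Symbols came from GENCODE M21 (51745 IDs matched, and IDs without a symbol held 0.0723% of counts).

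Testing was limited to genes counted (1 or more reads) in 12 or more libraries and used edgeR 4.0.16 (R 4.3.3, TMM scaling, quasi-likelihood test, Benjamini-Hochberg adjustment over all 17913 tested genes). A gene was called at an adjusted p of 0.01 or less and an absolute log2 fold change above 0.5. Standard errors (SE) were taken from the estimate and its F statistic, as |estimate|/sqrt(F). CPM values are counts scaled to TMM-adjusted library totals, and 3 counts correspond on average to 0.148 CPM on the high-fat and 0.175 CPM on the control diet. Intervals cover counting error only. Labels number the libraries within a diet, and p-values measure the spread between these libraries.

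The members, the gene lists and the split by Xist counts (above or below 1000) were chosen with earlier results of these data known. By rule, genes named were the 10 members, genes of the listed T cell, cytotoxic, checkpoint and helper sets, the 5 genes most like the mean of the CD3 genes, marker genes on which a result turns, and Xist. Which listed genes are given with values was chosen after their values were seen. DESeq2 1.42.0, limma-voom (limma 3.58.1), sva 3.50.0, other scalings and filters, a replicate block and leaving out each library were alternatives. Those for the comparisons within and between the Xist sets, for the markers of other cells and Spearman's rho were chosen after seeing the data. The edgeR steps were tested on simulated data. Differences were simulated only in genes with more counts than Pdcd1, so recovery at its depth was not tested. Permutation tests used numpy 2.4.6 and scipy 1.17.1 in Python 3.11.15.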

Additional observations from a re-analysis of the deposited data

Results flagged for a closer look

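Control replicate 6 lay far from the other 5 Xist-high controls for 3 members. It had Cd8a at 3.92 CPM (85 counts, next highest 0.88 CPM), Cd8b1 at 1.01 CPM (22 counts, next 0.295) and Cd3g at 1.11 CPM (24 counts, next 0.625). Among Xist-low controls, replicate 12 stood apart for Cd8b1 at 0.329 CPM (5 counts) and replicate 8 for Pdcd1 at 0.0589 CPM, which is 1 count where the other 5 had 0. In all 5 of 40 groups of 6 libraries held such a library by Dixon's test. Its nominal rate of about 1 in 20 assumes normally distributed values, which sparse counts with many at 0 are not. The 5 are therefore a description only.

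The diet effect differed between the Xist sets for 2 members by the interaction test, Cd8a with a difference of 3.62 and Nkg7 with one of 2.75 on the log2 scale.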

How the results depend on the processing

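Over all 24 libraries 1 member was higher. A minimum of 10 counts in each library left 0 members to test, and edgeR's default filter left 5 without Pdcd1, so the 0 calls under these filters say nothing about its call. The count was 0 with a term for the Xist sets, with 1 surrogate variable and in Xist-high libraries alone, 2 at an adjusted p of 0.05 with any fold change, 6 in Xist-low libraries alone, and 0 to 3 with 1 library left out. The interaction called 2 members, 4 with DESeq2, 3 with library totals and 1 to 3 with 1 library left out. Within the Xist-low set the count of 6 ran from 4 to 7. For the pathway lists (11 higher, 0 lower), higher genes numbered 4 of 8 still tested with at least 10 counts in every library, 21 at an adjusted p of 0.05, 7 at a log2 fold change above 1, 1 in Xist-high, 22 in Xist-low libraries and 11 to 16 with 1 library left out. Lower genes numbered 1 with DESeq2 or the Xist term (Zap70), 2 at an adjusted p of 0.05 and 0 to 1 with 1 library left out. For markers of other cells (20 higher, 4 lower), higher genes numbered 7 with at least 10 counts, 6 in Xist-high libraries and 18 to 21 with 1 library left out, and lower genes 1 with library totals, 0 at a log2 fold change above 1, 1 in Xist-high libraries and 4 to 5 with 1 left out. The cause was not tested.

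Log2 fold changes that turned in Xist-high libraries alone were those of Cd3d (-0.38), Cd3e (-0.49), Cd3g (-0.0134), Cd8a (-0.59), Cd8b1 (-0.37), Gzmb (-0.40) and Nkg7 (-0.30), and Gzma turned to 0.69 in Xist-low libraries alone. Within the Xist-high set Cd3g turned to 0.0844 with library totals, and with 1 library left out Cd3g ran from -0.18 to 0.24, Cd8a from -0.79 to 0.53, Cd8b1 from -0.62 to 0.40 and Pdcd1 from -0.30 to 1.76. In Xist-high libraries alone the share differences were 10.8 points for Cd8a, 3.65 for Pdcd1, -1.86 for Cd8b1 and 0.819 for CD3 against Nkg7. With 1 library left out they ran from 27.9 to 35.4 for Cd8a and from 7.09 to 10.1 for Pdcd1.

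After subtraction of the diet means, the correlation of same-numbered libraries was -0.0961 for replicate 9 and 0.162 to 0.578 for the others. Libraries of different number were not compared, and the Xist sets follow the replicate numbers. These values therefore cannot show whether the numbers pair the libraries. With the replicate block Pdcd1 had a log2 fold change of 2.78 (edgeR adjusted p = 0.00941), and 2063 genes were called higher and 844 lower, against 2372 and 894 without it. Pdcd1 had 0 to 6 counts per control library, so depth limits any statement on its level there.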
